A study of Mus musculus with 12 samples.

Results

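The genes described here carry out or control the oxidation of fatty acids in liver, and many are known targets of the nuclear receptor PPARalpha. They were a list of 35 mouse genes, and 34 were measured out of 18193 genes on the array. A gene was read from a probe set (a group of short probes that report as 1 value) whose annotation names it as the only gene, and from the brightest such probe set where there were several. Acsl1, an acyl-CoA synthetase, was not analysed here, since no probe set named it alone. Livers came from male mice that were wild type or lacked Nrf2 (labelled Nrf2 knockout), given vehicle (0 uM/kg) or CDDO-Im (30 uM/kg) by gavage, with the time given as 6 hours. Nrf2 is the transcription factor that turns on antioxidant and detoxification genes, and CDDO-Im is a synthetic triterpenoid that activates it. Each of the 4 groups had 3 arrays. Strain, age, feeding state and the kind of Nrf2 allele are not given in the labels, nor whether the arrays are of different animals. The p-values therefore reflect only the scatter among these samples, which may be technical. A mark, "(2)", stands in every vehicle title and in no CDDO-Im title, and its effect and that of the compound cannot be told apart.

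The liver burns fatty acids when food is short. Fatty acids enter the cell through carriers, are joined to coenzyme A, and cross into mitochondria on carnitine, where a repeating cycle of dehydrogenation, hydration, oxidation and cleavage shortens the chain and passes electrons to the respiratory chain. Very long chains are first shortened in peroxisomes. Acetyl-CoA that is not burned in the liver leaves it as ketone bodies. PPARalpha senses fatty acids, binds DNA with RXR, and raises the transcription of genes at most of these steps.

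The Nfe2l2 transcript, which encodes Nrf2, was lower in the null livers, with differences of -3.89 with vehicle and -3.84 with CDDO-Im (log2 intensity, adjusted p = 7.01e-07 and 2.73e-07). Hepatocyte markers such as Alb and Apoa1 were bright on every array, and the median deviation of 7 of them lay between -0.09 and 0.10. Wild type vehicle replicate 3 stood apart. It carried transcripts of pancreatic acinar cells at a summed level of 15650 (linear intensity over 9 measured markers), the level in Nrf2 null vehicle replicate 2 was 5275, and in the remaining 10 arrays it was between 926 and 1402. Wild type vehicle replicate 3 was also the highest array of its group for 21 of the 34 genes, and Nrf2 null vehicle replicate 2 for 24, and the part of the acinar RNA in these values was not tested. For comparisons that use these arrays, the counts of the 34 genes called are given with and without them. Medians, directions and overlaps of groups are given with all 12 arrays and rest in part on these arrays. In bulk liver RNA fewer cells of a type and less RNA per cell cannot be told apart.

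CDDO-Im raised a group of fatty acid genes in livers without Nrf2. Of the 34 genes 11 rose, or 32.4%, and 0 fell, where 5.9% of all 18193 genes changed, 3.58% up and 2.32% down (limma, Benjamini-Hochberg adjusted p under 0.05). The genes that rose were Ppara itself, both uptake genes (Cd36 and Slc27a2), 1 mitochondrial cycle enzyme (Hadh), 3 acyl-CoA thioesterases (Acot1, Acot3 and Acot4), 2 peroxisomal genes (Acaa1b and Pex11a), the peroxisomal reductase Decr2 and the ketone body enzyme Bdh1. The rises ranged from 1.47-fold for Slc27a2 to 7.81-fold for Acot1. The median difference over the 34 genes was 0.29 on the log2 scale, with a range of -0.19 to 2.96 and 31 of 34 above 0, against a median of -0.01 over all genes. The 3 CDDO-Im arrays all lay above the 3 vehicle arrays for 12 of the genes, against 11.6% of all genes. Single arrays weighed on the count of genes that rose. It was 4 without null vehicle replicate 1, 6 without null vehicle replicate 2, 5 without null CDDO-Im replicate 2 and 1 without null CDDO-Im replicate 3, and 11 at most with any other array left out. Hadh passed in all 12 such fits. Without both arrays that carried acinar transcripts 13 genes rose. Among markers of other cell types, 2 of 6 neutrophil markers were lower in the same comparison, S100a8 by a difference of -1.27 and S100a9 of -0.95 (adjusted p = 0.011 and 0.0276), and of 5 adipocyte markers Fabp4 was lower (-5.74, adjusted p = 0.00407). The summed level (linear intensity) of the 6 neutrophil markers was 666 to 812 on the null vehicle and 584 to 623 on the null CDDO-Im arrays, and that of the 5 adipocyte markers 2962 to 4381 and 384 to 456. Fabp4 was the brightest adipocyte marker on each null vehicle array, and the adipocyte sum fell with it. The median difference was -0.02 over the 5 adipocyte markers and -0.11 over the 6 neutrophil markers. Of the neutrophil markers 4 differed by less than 0 and 2 by more. The part of all these markers in the members' values was not tested.

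In wild type livers the same dose raised only Pex11a among the 34 genes, or 2.94%, and 0 fell, where 1.82% of all genes changed, 0.978% up and 0.846% down. Of the 34 genes 9, or 26.5%, had an unadjusted p under 0.05, against 13.6% of all genes. The median difference was 0.18, with a range of -0.32 to 1.87 and 22 of 34 above 0, against 0.01 over all genes. The groups lay apart, with CDDO-Im above vehicle, for 5 genes (Cpt2, Hadhb, Acaa1b, Acot4 and Pex11a), against 8.42% of all genes. The count of genes called turned on wild type vehicle replicate 3, the array with the acinar transcripts. Without it 6 genes rose: Pex11a, Acaa1b by 1.69 (adjusted p = 0.0132), Acot1 by 2.58 (0.0169), Acot3 by 2.04 (0.0104), Acot4 by 1.15 (0.00708) and Decr2 by 0.81 (0.0119). Without wild type CDDO-Im replicate 3 the count was 2. All 6 of the former also rose in the null livers in the fit to all arrays. Of the markers of other cell types, Fabp4 was lower here too (-3.73, adjusted p = 0.0217), and of 7 endothelial markers Lyve1 was higher (2.26, adjusted p = 0.0013). The summed level was 853 to 4240 on the vehicle and 402 to 628 on the CDDO-Im arrays for the adipocyte markers, and 1953 to 2801 and 1737 to 2245 for the endothelial markers, and their part was not tested. Fabp4 was the brightest adipocyte marker on each wild type vehicle array, and the median difference over the 5 adipocyte markers was 0.02. Over the 7 endothelial markers the median difference was -0.15, with 3 above 0 and 4 below.

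**Figure D1:**
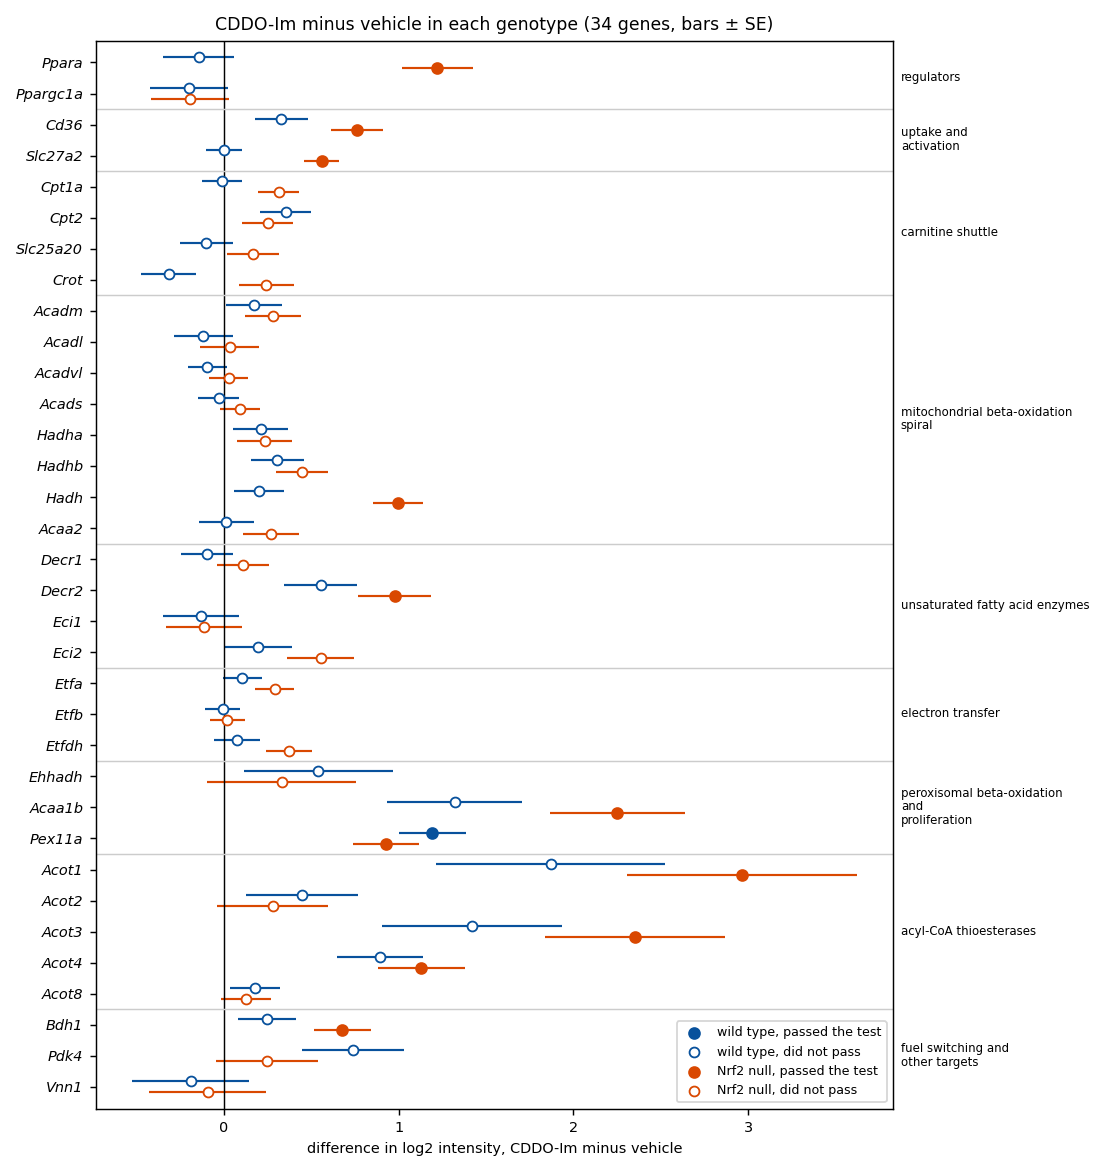
The difference in log2 intensity, CDDO-Im minus vehicle, is plotted for the 34 genes in wild type (blue) and Nrf2 null (orange) livers with bars of ± SE, grouped by role, and filled points passed the test (limma). The filled points are Pex11a in wild type and 11 genes in Nrf2 null, from Slc27a2 at 0.56 to Acot1 at 2.96.

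With vehicle alone, 32 of the 34 transcripts had a lower mean in livers without Nrf2 than in wild type. Ppara, Hadh and Cd36 were lower by the test (3 of 34, or 8.82%), where 0.275% of all genes were, and 0 were higher, where 0.115% of all genes were, and 17 of 34 had an unadjusted p under 0.05, against 13.2% of all genes. The null arrays lay wholly below the wild type arrays for 18 of the 34 genes and wholly above for 0, against 8.49% and 8.55% of all genes. The median difference, null minus wild type, was -0.43 with a range of -1.75 (Acot1) to 0.51 (Ppargc1a), against 0.02 over all genes. The calls were not stable to the choice of arrays. With 1 array left out the count was 0 without wild type vehicle replicate 1, wild type CDDO-Im replicates 1 or 3, null vehicle replicates 1 or 2, or null CDDO-Im replicate 2, was 1 without wild type vehicle replicate 2, and was 5 without null CDDO-Im replicate 1. Leaving out both arrays with acinar transcripts also gave 0.

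With CDDO-Im Pex11a was the member that was lower in null livers by the test (1 of 34, or 2.94%), with 0 higher, where 1.45% of all genes differed, 0.824% lower and 0.621% higher. The median difference was -0.13 with a range of -1.44 (Ehhadh) to 0.52 (Ppargc1a) and 22 of 34 below 0, against 0.01 over all genes. The null arrays lay wholly below the wild type arrays for Acadm, Ehhadh, Pex11a and Pdk4, against 7.82% of all genes, and wholly above for Ppargc1a, against 9.01%. Whether any gene responded differently to CDDO-Im by genotype was tested as the wild type effect minus the null effect. Of the 34 genes 0 passed, where 0.137% of all genes did, and 4, or 11.8%, had an unadjusted p under 0.05, against 7.1% of all genes. The median was -0.20, with 28 of 34 below 0, against 0.01 over all genes. So the genes called in null livers but not in wild type are not shown to differ in response on the probe sets used here. A dimmer probe set of Ppara did pass this test, and so did Ppara with array weights (-1.47, adjusted p = 0.0238). The Pex11a call between genotypes was lost in 6 of the 12 fits with 1 array left out (wild type vehicle replicate 1, wild type CDDO-Im replicates 1 and 2, and each null CDDO-Im array), with an adjusted p of up to 0.119. Without wild type CDDO-Im replicate 3 the count of lower genes was 2, with Pdk4 at -1.43 (adjusted p = 0.0128).

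**Figure D2:**
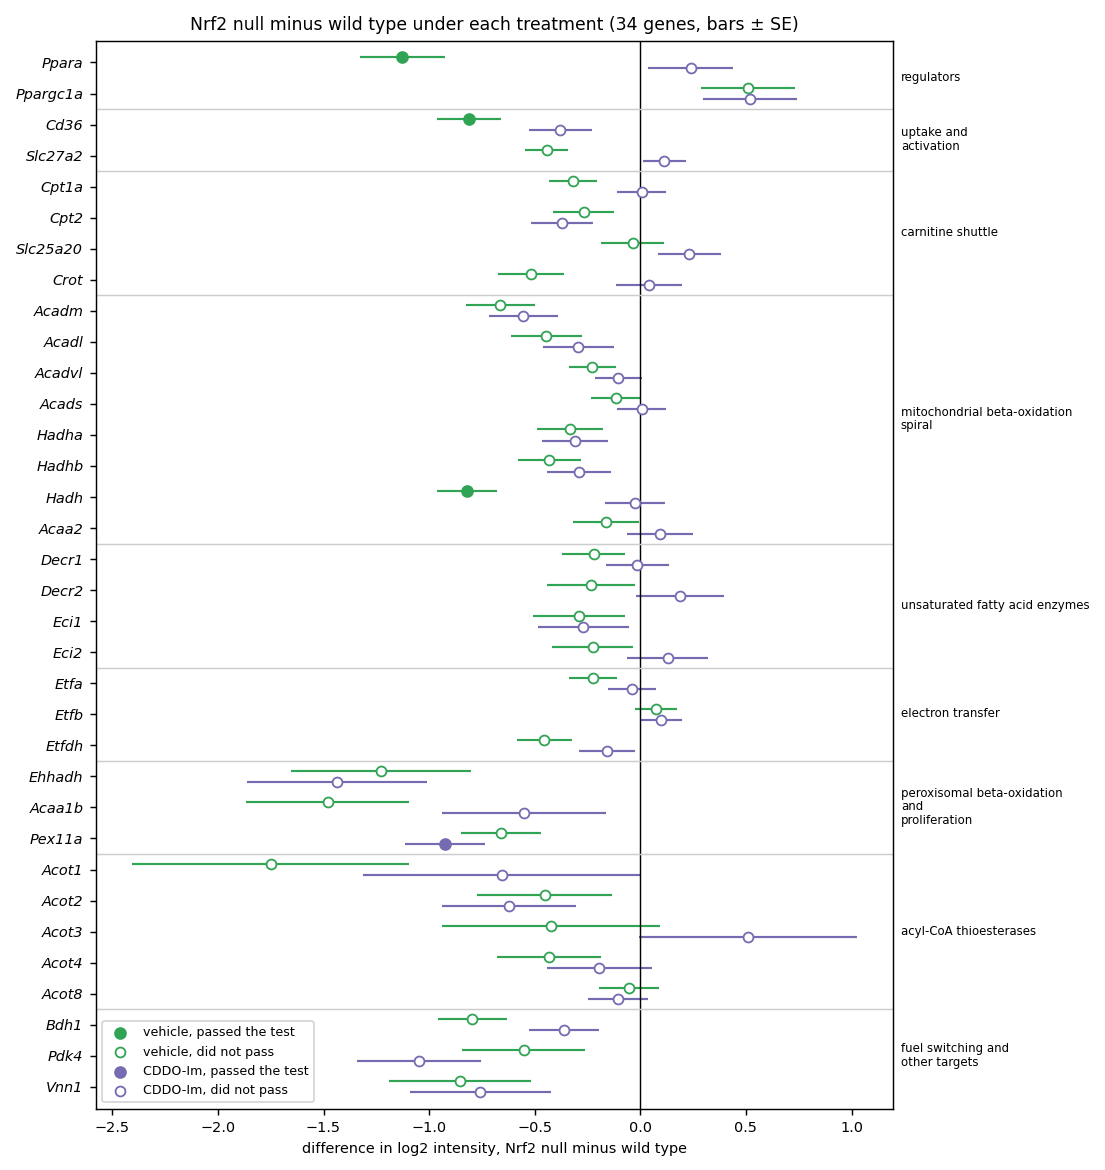
The difference in log2 intensity, Nrf2 null minus wild type, is plotted for the 34 genes under vehicle (green) and CDDO-Im (purple) with bars of ± SE, grouped by role, and filled points passed the test (limma). Under vehicle 32 of 34 points lie left of 0, and Ppara, Hadh and Cd36 are filled, while under CDDO-Im Pex11a is the filled point.

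Ppara (Entrez Gene 19013) encodes the receptor itself. It read 10.76, 10.59 and 10.59 in wild type with vehicle and 10.30, 10.73 and 10.48 with CDDO-Im (log2 intensity, replicates 1 to 3). In null livers it read 9.03, 9.61 and 9.93 with vehicle and 10.60, 10.58 and 11.05 with CDDO-Im. The 3 null vehicle arrays were the lowest of the 12, and the null CDDO-Im arrays overlapped those of wild type. Ppara rose 2.33-fold with CDDO-Im in null livers (1.22 ± 0.20, SE, adjusted p = 0.0106), was lower 2.19-fold in null than in wild type livers with vehicle (-1.13 ± 0.20, adjusted p = 0.0414), and differed by -0.14 ± 0.20 with CDDO-Im in wild type (adjusted p = 0.853). The difference between the 2 effects of CDDO-Im, wild type minus null, was -1.37 ± 0.28 (adjusted p = 0.167). Without null CDDO-Im replicate 3 the rise in null livers had an adjusted p of 0.0546. The lower level with vehicle lost its call in 7 of the 12 fits with 1 array left out, those without wild type vehicle replicates 1 or 2, wild type CDDO-Im replicates 1 or 3, null vehicle replicates 1 or 2, or null CDDO-Im replicate 2 (adjusted p of up to 0.158).

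The gene has 2 dimmer probe sets, read over all 34945 single-gene probe sets. The brighter of these read 10.48 ± 0.08, 10.28 ± 0.30, 8.84 ± 0.13 and 10.13 ± 0.21 in wild type vehicle, wild type CDDO-Im, null vehicle and null CDDO-Im (mean ± SD, n = 3 each). On it the genotype difference with vehicle was -1.65, the rise in null livers 1.29, and the difference between the effects -1.49 (adjusted p = 0.01225), which passed the test. The other read 10.27 ± 0.04, 10.16 ± 0.38, 8.93 ± 0.64 and 10.20 ± 0.37 in the same order, and its difference between the effects was -1.39 (adjusted p = 0.436). On all 3 probe sets the null vehicle group had the lowest mean, and the difference in response passed the test on 1 of them.

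Ppargc1a, a coactivator that works with PPARalpha during fasting, was not called in any comparison. It read 6.44, 6.12 and 6.61 with vehicle and 6.01, 6.28 and 6.29 with CDDO-Im in wild type, and 7.01, 7.17 and 6.53 with vehicle and 7.25, 6.44 and 6.45 with CDDO-Im in null livers. The groups overlapped with vehicle, and with CDDO-Im the null arrays lay above. It was the member with the largest positive genotype difference under both treatments, 0.51 and 0.52, and neither passed the test (adjusted p = 0.353 and 0.39).

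Both uptake genes rose with CDDO-Im in livers without Nrf2. Slc27a2, a very long chain acyl-CoA synthetase and fatty acid carrier, read 12.75, 13.12 and 12.91 with vehicle and 13.49, 13.39 and 13.58 with CDDO-Im in null livers, against 13.39, 13.21 and 13.51 and 13.34, 13.41 and 13.37 in wild type. The null vehicle arrays lay below all other 9. Slc27a2 rose 1.47-fold in null livers (0.56 ± 0.10, adjusted p = 0.0126) and differed by 0.00 ± 0.10 in wild type (adjusted p = 0.996). The difference between the effects was -0.56 ± 0.14 (adjusted p = 0.29). The rise lost its call without null vehicle replicate 1 or null CDDO-Im replicate 3, with an adjusted p of up to 0.0639.

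Cd36, a scavenger receptor that takes up long-chain fatty acids, read 8.11, 7.67 and 7.74 with vehicle and 8.18, 8.34 and 7.99 with CDDO-Im in wild type. In null livers it read 7.22, 6.79 and 7.07 with vehicle and 8.03, 7.67 and 7.67 with CDDO-Im, so that the null vehicle arrays were again the lowest of the 12. Cd36 rose 1.695-fold with CDDO-Im in null livers (0.76 ± 0.15, adjusted p = 0.0168) and was lower 1.75-fold in null livers with vehicle (-0.81 ± 0.15, adjusted p = 0.0449). The rise lost its call without null vehicle replicate 2 or null CDDO-Im replicate 3 (adjusted p of up to 0.0607), and the genotype difference lost its call in 10 of the 12 fits with 1 array left out, the exceptions being wild type vehicle replicate 3 and null CDDO-Im replicate 1 (adjusted p of up to 0.169). A dimmer Cd36 probe set gave 0.74 and -0.89 for these comparisons (adjusted p = 0.0191 and 0.0369), and the dimmest, with a mean of 4.46, gave 0.25 and -0.31 (adjusted p = 0.116 and 0.144).

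Macrophages also make Cd36. The median deviation of 7 Kupffer cell and macrophage markers lay between -0.78 and -0.08 on the null vehicle arrays, between -0.08 and 0.20 on the null CDDO-Im arrays and between -0.34 and 0.48 on the wild type vehicle arrays. On the wild type CDDO-Im arrays it lay between -0.04 and 0.60. Of the 7 markers Marco was lower in null than in wild type livers with CDDO-Im (-1.32, adjusted p = 0.0307), and none passed in the other comparisons. Their median difference was 0.37 in null livers with CDDO-Im and -0.36 between genotypes with vehicle. Their part in the values of Cd36 was not tested. Fat cells make Cd36 too. Of the 5 adipocyte markers measured Fabp4 was lower with CDDO-Im in both genotypes, as given above, and Adipoq, a defining marker, lay between 4.05 and 5.30 on all 12 arrays, under the median of all probe sets. Their part in the values of Cd36 was not tested.

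**Figure D3:**
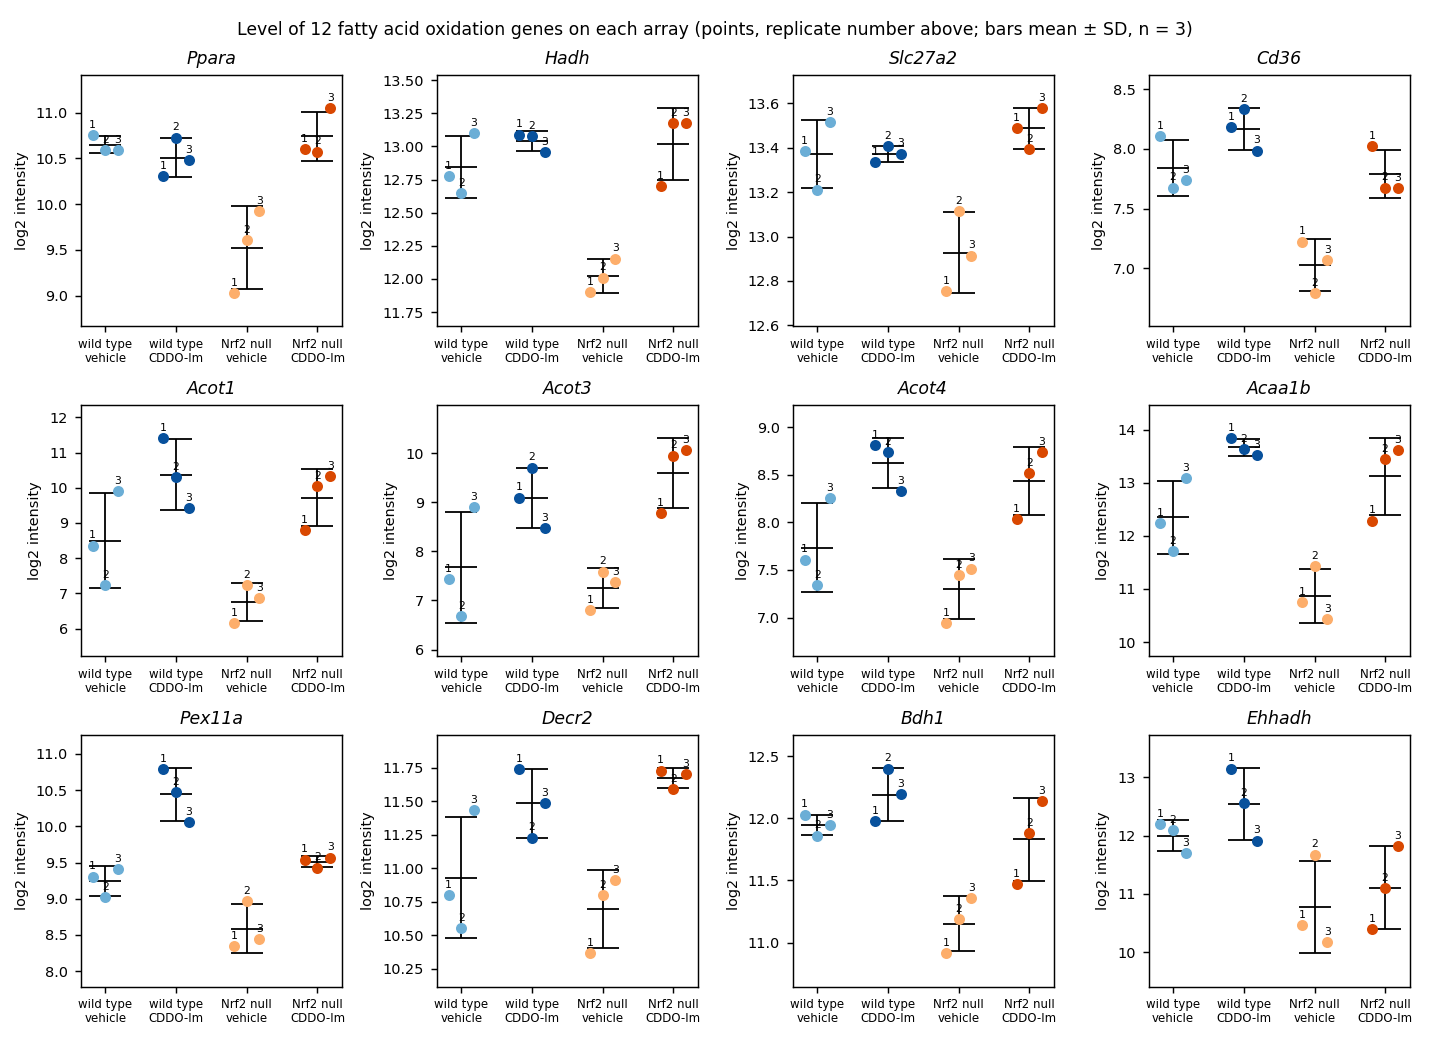
The log2 intensity of 12 of the genes is plotted for each array in the 4 groups of 3, with the replicate number above each point and bars of mean ± SD. Ppara, Hadh, Slc27a2, Cd36, Bdh1, Acaa1b and Pex11a show the null vehicle arrays below the other 9, as does Acot1 with the closest pair nearly level. Acot1 shows the widest spread, from 7.23 to 9.91 in wild type with vehicle.

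None of the 4 carnitine shuttle genes passed the test in any comparison. Cpt1a, the outer membrane transferase that sets the rate of entry into mitochondria, read 12.54, 12.38 and 12.68 with vehicle and 12.47, 12.55 and 12.55 with CDDO-Im in wild type, and 12.02, 12.29 and 12.33 with vehicle and 12.62, 12.31 and 12.66 with CDDO-Im in null livers. Its null vehicle arrays lay below the wild type vehicle arrays (-0.32, adjusted p = 0.259), and the treated arrays overlapped. It differed by -0.01 ± 0.12 with CDDO-Im in wild type and 0.31 ± 0.12 in null livers (adjusted p = 0.9841 and 0.1475). In wild type 2 dimmer Cpt1a probe sets had lower means with CDDO-Im, and neither passed the test. They read 10.50 ± 0.34 and 8.58 ± 0.51 with vehicle, and 10.09 ± 0.22 and 7.93 ± 0.51 with CDDO-Im (mean ± SD, n = 3 each). In null livers they read 10.24 and 8.29 with vehicle, and 10.49 and 8.46 with CDDO-Im. In null livers CDDO-Im differed from vehicle by 0.25 for Cpt2, the inner membrane transferase, 0.17 for Slc25a20, the carrier between the transferases, and 0.24 for Crot, which passes peroxisomal products to carnitine. Crot differed by -0.32 in wild type, and the difference between its effects was -0.56 ± 0.22 (adjusted p = 0.621).

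Of the 8 enzymes of the mitochondrial cycle Hadh alone was called. Hadh (Entrez Gene 15107) oxidises the hydroxyacyl-CoA intermediate of short and medium chains. It read 12.77, 12.65 and 13.10 with vehicle and 13.09, 13.08 and 12.96 with CDDO-Im in wild type, and 11.90, 12.01 and 12.15 with vehicle and 12.70, 13.17 and 13.18 with CDDO-Im in null livers. The null vehicle arrays lay below the other 9 with no overlap. Hadh rose 1.995-fold (0.996 ± 0.14) with CDDO-Im in null livers (adjusted p = 0.00666), was lower with vehicle in null than in wild type livers (-0.82 ± 0.14, adjusted p = 0.037), and differed by 0.20 ± 0.14 with CDDO-Im in wild type (adjusted p = 0.628). The difference between the effects was -0.80 ± 0.20 (adjusted p = 0.273). The rise kept its call in all 12 fits with 1 array left out (adjusted p of up to 0.0388), while the genotype difference lost it in 6, those without wild type vehicle replicate 1, wild type CDDO-Im replicates 1 or 3, null vehicle replicates 1 or 2, or null CDDO-Im replicate 2 (adjusted p of up to 0.174). The name of its probe set marks probes that can match other transcripts, and another Hadh probe set gave 0.87 and -0.81 (adjusted p = 0.0173 and 0.0783), while the dimmest, with a mean of 5.97, gave 0.40 and -0.35 (adjusted p = 0.173 and 0.358).

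Each of the other 7 cycle enzymes had a lower mean in null than in wild type livers with vehicle, and none of these differences passed the test. Acadm, the medium-chain acyl-CoA dehydrogenase, read 12.46, 12.30 and 12.50 in wild type and 11.52, 11.95 and 11.80 in null livers with vehicle. With CDDO-Im it read 12.59, 12.74 and 12.45 in wild type and 11.66, 12.10 and 12.35 in null livers. The null arrays lay below the wild type arrays under both treatments, by 0.66 ± 0.16 with vehicle (-0.66, adjusted p = 0.114) and by 0.55 ± 0.16 with CDDO-Im (-0.55, adjusted p = 0.147). Acadl, the long-chain dehydrogenase, was apart with vehicle (-0.44, adjusted p = 0.286). Hadhb, a subunit of the trifunctional protein that completes the cycle on long chains, differed by 0.45 with CDDO-Im in null livers (adjusted p = 0.108) and its partner Hadha by 0.23. Acadvl, Acads and Acaa2, which act on very long chains, on short chains and at the cleavage step, differed by 0.03, 0.09 and 0.27 in null livers. Over the 8 enzymes the median effect of CDDO-Im was 0.25 in null and 0.09 in wild type livers, and the median genotype difference with vehicle was -0.38.

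Among the enzymes for unsaturated chains Decr2, the peroxisomal dienoyl-CoA reductase, rose in null livers. It read 10.37, 10.80 and 10.91 with vehicle and 11.73, 11.59 and 11.70 with CDDO-Im there, and 10.80, 10.56 and 11.43 with vehicle and 11.74, 11.23 and 11.48 with CDDO-Im in wild type. The null groups lay apart, while in wild type the vehicle array that overlapped the CDDO-Im arrays was replicate 3. Decr2 rose 1.97-fold in null livers (0.98 ± 0.21, adjusted p = 0.0211) and differed by 0.55 ± 0.21 in wild type (adjusted p = 0.244). The rise in null livers lost its call without null vehicle replicates 1 or 2 or any of the null CDDO-Im arrays (adjusted p of up to 0.0901). Its mitochondrial counterpart Decr1 differed by 0.11 and -0.10 in null and wild type livers. A dimmer Decr1 probe set read 9.20 ± 0.10 with vehicle and 9.59 ± 0.20 with CDDO-Im in wild type (mean ± SD, n = 3 each). In null livers it read 8.56 ± 0.48 and 9.22 ± 0.45. On it the CDDO-Im arrays lay above the vehicle arrays in each genotype, narrowly in null livers, so the 2 probe sets differ. The enoyl-CoA isomerases Eci1 and Eci2 differed by -0.11 and 0.55 in null livers (adjusted p = 0.851 and 0.123).

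The flavoproteins that hand electrons from the dehydrogenases to the respiratory chain were not called in any comparison. Etfdh, the membrane oxidoreductase, differed by 0.37 with CDDO-Im in null livers (adjusted p = 0.128) and by -0.46 between genotypes with vehicle (adjusted p = 0.164). The soluble subunit Etfa differed by 0.29 and -0.22 in these comparisons, with the groups apart in both. Etfb, its partner, differed by 0.02 and 0.07 and lay between 12.43 and 12.80 on all 12 arrays.

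Pex11a was the member whose rise passed the test in both genotypes with all arrays fitted. On the probe sets that stood for each gene, Acaa1b and Acot4 also had every CDDO-Im array above the vehicle arrays in both. Pex11a encodes a peroxisomal membrane protein that promotes the division of peroxisomes. Pex11a (Entrez Gene 18631) read 9.31, 9.02 and 9.41 with vehicle and 10.78, 10.47 and 10.06 with CDDO-Im in wild type. In null livers it read 8.34, 8.97 and 8.44 with vehicle and 9.54, 9.43 and 9.57 with CDDO-Im. The CDDO-Im arrays lay above the vehicle arrays in each genotype, and the null arrays lay below the wild type arrays under each treatment. Pex11a rose 2.29-fold in wild type (1.19 ± 0.19, adjusted p = 0.00797) and 1.90-fold in null livers (0.93 ± 0.19, adjusted p = 0.0184), and the difference between the effects was 0.27 ± 0.27 (adjusted p = 0.914). Between genotypes it differed by -0.66 with vehicle (adjusted p = 0.164) and by -0.93 ± 0.19 with CDDO-Im (adjusted p = 0.0347). The rise in wild type kept its call in all 12 fits with 1 array left out (adjusted p of up to 0.0456) and lost it when only the wild type arrays were fitted (adjusted p = 0.054), and the rise in null livers lost it without null vehicle replicate 1 or null CDDO-Im replicates 2 or 3 (adjusted p of up to 0.0826). A dimmer probe set of the gene gave 1.08 in wild type and 1.03 in null livers, and neither passed the test over all single-gene probe sets (adjusted p = 0.0802 and 0.0578).

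Acaa1b and Ehhadh carry out steps of the peroxisomal cycle, and Acaa1b was the one that rose. Acaa1b, a peroxisomal thiolase, read 12.25, 11.72 and 13.09 with vehicle and 13.85, 13.64 and 13.53 with CDDO-Im in wild type, and 10.75, 11.43 and 10.43 with vehicle and 12.29, 13.45 and 13.63 with CDDO-Im in null livers. The CDDO-Im arrays lay above the vehicle arrays in each genotype. The rise in null livers was 4.76-fold (2.25 ± 0.39, adjusted p = 0.011), and the difference in wild type, 1.32 ± 0.39, did not pass (adjusted p = 0.12) until wild type vehicle replicate 3 was left out (1.69, adjusted p = 0.0132). Without null CDDO-Im replicate 3 the rise in null livers had an adjusted p of 0.0546. Ehhadh, the peroxisomal enzyme that carries out the hydration and oxidation steps, read 12.20, 12.10 and 11.71 with vehicle and 13.15, 12.55 and 11.92 with CDDO-Im in wild type, and 10.47, 11.67 and 10.18 with vehicle and 10.39, 11.10 and 11.82 with CDDO-Im in null livers. All 6 null arrays lay below the wild type arrays of the same treatment, by 1.23 ± 0.43 with vehicle and 1.44 ± 0.43 with CDDO-Im (-1.23 and -1.44, adjusted p = 0.237 and 0.156). CDDO-Im differed from vehicle by 0.33 in null and 0.54 in wild type livers (adjusted p = 0.757 and 0.677).

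Acyl-CoA thioesterases release free fatty acid and coenzyme A, and Acot1 and Acot3 had the largest rises among the 34 genes. Acot1 (cytosolic), Acot2 (mitochondrial), Acot3 and Acot4 (both peroxisomal) lie beside each other on chromosome 12 and have closely similar sequences, so that probes of 1 gene can pick up signal from another, and their separate values are uncertain. Acot1 read 8.36, 7.23 and 9.91 with vehicle and 11.41, 10.29 and 9.41 with CDDO-Im in wild type, and 6.16, 7.23 and 6.86 with vehicle and 8.79, 10.04 and 10.32 with CDDO-Im in null livers. Wild type vehicle replicate 3 lay among the CDDO-Im arrays, and the null groups were apart. Acot1 rose 7.81-fold in null livers (2.96 ± 0.66, adjusted p = 0.0245) and differed by 1.87 ± 0.66 in wild type (adjusted p = 0.203), or by 2.58 (adjusted p = 0.0169) without wild type vehicle replicate 3. A probe set that names Acot1 and Acot2 together rose by 2.50 ± 0.60 in null livers (adjusted p = 0.0427).

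Acot3 read 7.44, 6.67 and 8.90 with vehicle and 9.09, 9.70 and 8.48 with CDDO-Im in wild type, and 6.80, 7.59 and 7.37 with vehicle and 8.79, 9.95 and 10.07 with CDDO-Im in null livers. It rose 5.10-fold in null livers (2.35 ± 0.52, adjusted p = 0.0238) and differed by 1.42 ± 0.52 in wild type (adjusted p = 0.224). With vehicle it differed by -0.42 ± 0.52 between the genotypes, whose arrays overlapped (adjusted p = 0.781). Acot4 read 7.61, 7.34 and 8.25 with vehicle and 8.81, 8.74 and 8.33 with CDDO-Im in wild type, and 6.94, 7.45 and 7.52 with vehicle and 8.04, 8.52 and 8.74 with CDDO-Im in null livers. The treated arrays lay above the vehicle arrays in each genotype, narrowly in wild type. Acot4 rose 2.19-fold in null livers (1.13 ± 0.25, adjusted p = 0.0234) and differed by 0.89 ± 0.25 in wild type (adjusted p = 0.0998). Acot2 and Acot8, a peroxisomal member on another chromosome, differed by 0.28 and 0.13 in null and by 0.45 and 0.18 in wild type livers, and neither passed. The rises of Acot1, Acot3 and Acot4 in null livers each lost their call without null vehicle replicates 1 or 2 or null CDDO-Im replicates 2 or 3, with adjusted p of up to 0.1072, 0.1035 and 0.1041. On the dimmer probe set of Acot4 the rise in null livers did not pass the test.

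The promoters of the 3 thioesterases that rose and of Pex11a are shown because they include the largest rises in null livers (Acot1 and Acot3), their neighbour Acot4 and the gene called in both genotypes. The 250 bases before a RefSeq start of each gene are given on the gene's own strand (mouse build GRCm38.p6). Capitals mark matches to the motifs searched. The Acot4 window lies inside that gene's annotated span, 84037254 to 84044723, so the start used for it is not the first base of the gene.
Acot1 chr12:84009252-84009501, plus strand: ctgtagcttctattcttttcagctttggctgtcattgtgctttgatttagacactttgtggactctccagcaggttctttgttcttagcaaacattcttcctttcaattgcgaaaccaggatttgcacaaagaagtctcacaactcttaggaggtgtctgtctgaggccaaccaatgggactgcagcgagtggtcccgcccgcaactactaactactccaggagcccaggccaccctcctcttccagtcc
Acot3 chr12:84051894-84052143, plus strand: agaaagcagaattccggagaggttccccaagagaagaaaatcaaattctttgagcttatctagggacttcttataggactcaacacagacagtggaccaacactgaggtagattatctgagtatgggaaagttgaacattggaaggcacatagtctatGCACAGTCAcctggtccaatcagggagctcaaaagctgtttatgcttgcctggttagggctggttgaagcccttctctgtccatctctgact
Acot4 chr12:84038129-84038378, plus strand: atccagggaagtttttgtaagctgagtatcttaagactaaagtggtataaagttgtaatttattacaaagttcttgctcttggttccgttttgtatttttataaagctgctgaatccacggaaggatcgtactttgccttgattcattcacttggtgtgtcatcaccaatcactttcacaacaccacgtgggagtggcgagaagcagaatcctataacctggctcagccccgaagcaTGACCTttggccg
Pex11a chr7:79743132-79743381, minus strand: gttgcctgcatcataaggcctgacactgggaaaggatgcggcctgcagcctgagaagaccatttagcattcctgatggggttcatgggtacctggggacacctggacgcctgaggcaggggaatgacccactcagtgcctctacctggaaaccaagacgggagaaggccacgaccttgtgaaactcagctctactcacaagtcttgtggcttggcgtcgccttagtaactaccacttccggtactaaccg
Windows of 250 bases before to 50 after the start were found for 31 of the 34 genes. Both strands were searched for the perfect PPAR direct repeat AGGTCANAGGTCA, for its repeat unit AGGTCA alone, and for the core of the antioxidant response element bound by Nrf2, TGACNNNGC. A direct repeat holds repeat units, so those motifs overlap. The direct repeat was in 0 of 31 windows, against 0.0481% of 27025 genes. The repeat unit was in 7 (Cpt1a, Acadm, Acadvl, Acot3, Acot4, Cd36 and Slc27a2), or 22.6%, against 18.1% of genes, and in 4 of the 11 that rose in null livers. In Acot4 it lies at -13 to -8 from the start used, within the gene's annotated span, in capitals above, and in Acot3 after the start. The antioxidant core was in 2 (Ehhadh and Acot3), or 6.45%, against 14.0% of genes, and in Acot3 it lies at -92 to -84. A match here is a match of letters, and no match says only that these letters are not in the window.

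Of 3 further targets that steer fuel use, Bdh1 was called. Bdh1, the ketone body dehydrogenase, read 12.03, 11.86 and 11.95 with vehicle and 11.98, 12.40 and 12.20 with CDDO-Im in wild type, and 10.91, 11.19 and 11.35 with vehicle and 11.47, 11.88 and 12.14 with CDDO-Im in null livers. The null vehicle arrays were the lowest of the 12. Bdh1 rose 1.60-fold in null livers (0.68 ± 0.17, adjusted p = 0.0352), and its difference between genotypes with vehicle was -0.80 ± 0.17 (adjusted p = 0.0727). The rise lost its call without wild type CDDO-Im replicate 3, null vehicle replicates 1 or 2, or null CDDO-Im replicates 2 or 3 (adjusted p of up to 0.138). It also lost its call without both arrays that carried acinar transcripts (0.0665) and with only the null arrays fitted (0.0577). The same held with the mean of the gene's probe sets and on its dimmer probe set.

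Pdk4, the kinase that turns off pyruvate dehydrogenase and so spares glucose, read 5.53, 5.52 and 5.35 with vehicle and 7.07, 6.12 and 5.44 with CDDO-Im in wild type, and 4.79, 5.08 and 4.88 with vehicle and 5.36, 5.10 and 5.03 with CDDO-Im in null livers. It lay under the median of all probe sets on 10 of the 12 arrays, so the sizes of its differences are uncertain. It differed by 0.74 ± 0.29 with CDDO-Im in wild type (adjusted p = 0.269), with wild type CDDO-Im replicate 3 among the vehicle arrays, and by 1.13 (adjusted p = 0.0477) without that array. Vnn1, a pantetheinase often used as a marker of PPARalpha activity, differed by -0.19 and -0.09 with CDDO-Im in wild type and null livers (adjusted p = 0.895 and 0.925). With vehicle its null arrays, 10.41, 11.19 and 10.46, lay below those of wild type, 11.98, 11.44 and 11.20, with the closest pair nearly level (-0.85, adjusted p = 0.302).

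**Figure D4:**
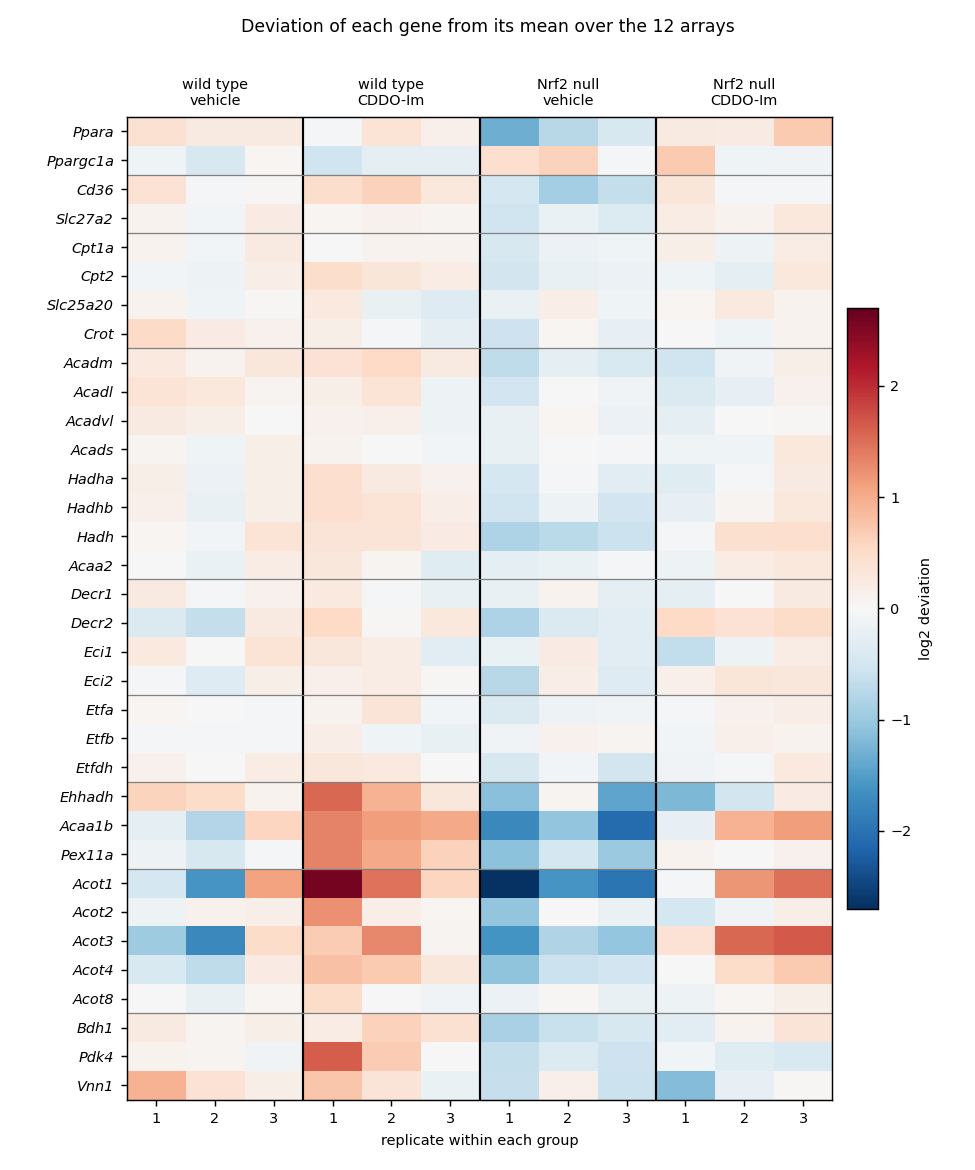
Each cell is the log2 deviation of 1 gene on 1 array from that gene's mean over the 12 arrays, with genes in rows by role and the 4 groups of 3 arrays in columns, and the colours run from -2.7 to 2.7. The null vehicle columns are mostly below 0, and within each group 1 array is high or low for many genes at a time, such as null vehicle replicate 1, the lowest of its group for 26 of the 34.

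The members were often high or low on the same arrays within a group. Null CDDO-Im replicate 3 was the highest of its group for 27 of the 34 genes, wild type CDDO-Im replicate 1 for 22, and wild type CDDO-Im replicate 3 was the lowest for 28. The median SD of a gene within a group was 0.18, 0.21, 0.22 and 0.25 in wild type vehicle, wild type CDDO-Im, null vehicle and null CDDO-Im, against 0.10, 0.11, 0.12 and 0.10 over all genes tested. The widest spread was that of Acot1 in wild type with vehicle, an SD of 1.35. The members share their libraries and are not replicates of a condition.

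A wider list of 88 genes of the same pathways, of which 78 were measured, was read in the same way. In null livers 13 of 78 rose and 2 fell with CDDO-Im, or 16.7% and 2.56%, where 3.58% of all genes rose and 2.32% fell, so the share that fell was near that of all genes. Aldh3a2, which oxidises fatty aldehydes, rose 4.10-fold (2.04, adjusted p = 0.0111), Acot12, another thioesterase, by 1.17 (adjusted p = 0.0109), and Bbox1, the last enzyme of carnitine synthesis, by 1.11 (adjusted p = 0.00958). Echs1, the mitochondrial hydratase of the cycle, rose by 0.54 (adjusted p = 0.0104). Acox2, a peroxisomal oxidase of branched chains and bile acid precursors, fell by 0.42 (adjusted p = 0.0336), as did Slc16a6, a ketone body carrier, by 0.36 (adjusted p = 0.021). Slc16a6 lay between 4.81 and 5.42 on all 12 arrays, under the median of all probe sets, so the size of its fall is uncertain. The median difference over the 78 was 0.25. Cyp4a14, a fatty acid hydroxylase, differed by -0.94 in null and -0.63 in wild type livers, and Angptl4, a lipase inhibitor, by 0.07 and -0.02, and neither passed.

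In wild type livers 1 of the 78 rose and 1 fell, or 1.28% each, near the 0.978% and 0.846% of all genes. Fgf21, a liver hormone of fasting, read 8.11, 8.01 and 7.93 with vehicle and 9.23, 10.32 and 10.20 with CDDO-Im, a rise of 1.89 (adjusted p = 0.00813), and in null livers the means were 7.15 with each treatment. Slc16a6, which was dim on every array, fell by 0.41 (adjusted p = 0.019). With dim genes left out of the fit 0 of 72 genes of the wider list fell in wild type. Without wild type vehicle replicate 3, 11 of the 78 rose in wild type. In null livers the counts of the 78 that rose were 5 without null vehicle replicate 1, 5 without null CDDO-Im replicate 2 and 0 without null CDDO-Im replicate 3. Between genotypes 0 of 78 were called with vehicle, where 25, or 32.1%, had an unadjusted p under 0.05, against 13.2% of all genes. With CDDO-Im 1 was higher and 2 were lower, or 1.28% and 2.56%, where 0.621% and 0.824% of all genes were. Amacr, a racemase for branched chains, was higher in null livers (1.74, adjusted p = 0.0367), and Fgf21 and Acox2 were lower (-2.76 and -0.67, adjusted p = 0.000535 and 0.00484). The difference between the effects was called for 0 of 78, where 12, or 15.4%, had an unadjusted p under 0.05, against 7.1% of all genes.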

How the data were processed

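Liver RNA of 12 mouse arrays was measured. The deposited values were log2 intensities, produced with RMA, per the submitters' processing notes, whose version is not given in the sources used here. They were used as deposited (45101 probe sets, array medians 5.77 to 5.83, with no missing value). The number of arrays limits the precision. Groups came from titles and characteristics. Of the probe sets 34945 named 1 gene, and the brightest per gene stood for it, which gave 18193 genes, none left out for low signal. All 12 arrays entered a single linear model of the 4 groups in limma 3.58.1 (R 4.3.3), tested two-sided, with Benjamini-Hochberg adjustment over all genes within each of 5 comparisons and a threshold of 0.05. On simulated data it recovered 93% of 100 genes changed by 1 log2 unit in wild type and 81% for the interaction, with 7 false calls of 200 and 5 of 186. Those genes were drawn at random from all genes, with noise independent between genes. The members had a wider spread (median SD 0.18 to 0.25 against 0.10 to 0.12 over all genes) and moved together by array. The simulated shares therefore do not apply to the members. The members, gene lists and alternatives were chosen with earlier results of these data known. Full values were given for Ppara, Ppargc1a, Cpt1a, Ehhadh, Acot1 and Pdk4, for members called between genotypes, and for up to 8 called members per comparison with the smallest adjusted p. Those of Acot3, Bdh1, Acadm and Vnn1, and the remaining differences of single members, were added after their values were seen. Of the wider list, Cyp4a14, Angptl4 and Fgf21 were named always, and up to 4 called genes per comparison. Promoters were RefSeq windows of build GRCm38.p6. Same-numbered arrays were checked for pairing: correlations of their deviations lay between -0.30 and 0.28, so the numbers were not taken as pairs. Alternatives changed the normalization, the probe set, the filter, the prior, array weights, the replicate number as a block and the arrays in the fit.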

Additional observations from a re-analysis of the deposited data

Results flagged for a closer look

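The response of Ppara to CDDO-Im differed between the genotypes on its brighter alternative probe set by the test of the difference itself. The wild type effect minus the null effect was -1.49 ± 0.20 (SE, limma, adjusted p = 0.01225 over 34945 single-gene probe sets), with -0.20 in wild type and 1.29 in null livers. The 3 null vehicle arrays read 8.79, 8.74 and 8.99, and the null CDDO-Im arrays 10.02, 10.00 and 10.37. On the probe set used in the report and on the third the same difference was -1.37 and -1.39 and did not pass (adjusted p = 0.167 and 0.436).

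Acox2 moved in opposite directions with CDDO-Im in the 2 genotypes, with every CDDO-Im array above the vehicle arrays in wild type and below them in null livers. It read 11.22, 11.14 and 10.96, then 11.28, 11.27 and 11.31 in wild type, and 10.98, 11.12 and 10.96, then 10.80, 10.61 and 10.42 in null livers. The effects were 0.18 and -0.42, and the difference of 0.59 did not pass in the fit (adjusted p = 0.242); the order of the arrays itself was not tested.

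Echs1 was lower in all null arrays than in all wild type arrays with vehicle (-0.18) and higher with CDDO-Im (0.27). It read 11.10, 11.05 and 11.31 with vehicle and 11.25, 11.32 and 11.17 with CDDO-Im in wild type, and 10.86, 11.03 and 11.03, then 11.42, 11.51 and 11.61 in null livers. The difference of -0.45 did not pass (adjusted p = 0.363), and the order of the arrays itself was not tested.

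Probe sets that name a member with another gene took no part in the comparisons, and 3 of them changed with CDDO-Im in null livers when all 45037 probe sets were tested together. The probe set of Acot2 and Acot1 rose by 2.50 (adjusted p = 0.0427), from 7.06, 7.85 and 7.57 to 9.08, 10.35 and 10.55. The 2 probe sets of Acaa1b and Acaa1a rose by 1.50 (adjusted p = 0.035) and 1.25 (adjusted p = 0.0324).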

How the results depend on the processing

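Of the 43 results for named members 0 changed direction in an alternative where either fit passed the test. Directions could change where neither passed. With CDDO-Im in wild type Ppargc1a differed by -0.20 in the main fit. Another of its probe sets had means of 4.99 with vehicle and 5.08 with CDDO-Im there. None of the 16 calls among the 43 held in all alternatives, counting other probe sets. The count of members called with 1 array left out ran from 1 to 6 in wild type with CDDO-Im, 1 to 11 in null livers with CDDO-Im, 0 to 5 between genotypes with vehicle, 0 to 2 with CDDO-Im and 0 to 0 for the interaction. Over all genes it ran from 104 to 1385 (332 with all arrays), 97 to 1615 (1074), 19 to 219 (71), 151 to 464 (263) and 15 to 46 (25). In wild type with CDDO-Im the members called were 6 with array weights, 6 without both arrays that carried acinar transcripts and 0 with only the groups compared, and all genes called were 2023, 1293 and 110. In null livers all genes called with weights were 1897, and the members called were 13 without the acinar arrays. Between genotypes with vehicle the members called were 1 with array medians subtracted, 8 with weights, 0 with only the groups compared and 0 without the acinar arrays, and all genes called were 40, 1477, 18 and 117. With CDDO-Im they were 0 with medians subtracted, with the mean of a gene's probe sets and with the replicate block, and all genes called were 411 without the acinar arrays. For the interaction 1 member was called with weights (Ppara, -1.47, adjusted p = 0.0238), and all genes called were 89 with weights and 39 without the acinar arrays. Some of these fits had fewer arrays, and the cause of the changes was not tested. With the replicate number as a block the members called were 1, 11, 4, 0 and 0 and all genes 323, 1000, 80, 231 and 20, in the order above, and of 18 same-numbered pairs 4 correlated over 0.1, with 2 of 12 arrays correlating best with their own number. Among the 27 of the 43 results that did not pass with all arrays, 4 passed in an alternative: Acot1 in wild type, Pdk4 in wild type and between genotypes with CDDO-Im, and the Ppara interaction. Outside the 43, Acaa1b, Acot3, Acot4 and Decr2 in wild type passed without wild type vehicle replicate 3. No signal over background was read, and changes of dim genes such as Pdk4 and Slc16a6 are uncertain in size.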
